A study of Homo sapiens with 12 samples.

Results

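HCT116 cells, a human colorectal carcinoma line, in which the endogenous SDS22 protein can be degraded on demand were compared with and without that treatment. The response was read across genes in 6 of the 12 RNA-seq samples of the series, 3 untreated and 3 treated cultures of the SDS22-degron line, chosen by their labels alone. The genotype of the line was HCT116 Tet-OsTIR1 with both PPP1R7 alleles changed so that SDS22 carried a degron and a fluorescent tag (SDS22-mAID-mClover). Treated cells received 2 µg/ml doxycycline (Dox) together with 500 µM indole-3-acetic acid (IAA, an auxin) for 48 h. The other 6 samples came from parental cells, which were HCT116 Tet-OsTIR1 without the degron on SDS22, 3 untreated and 3 treated in the same way. Both lines therefore carried the rice F-box protein TIR1 at the AAVS1 locus under a tetracycline-inducible promoter, and both treated groups met Dox, IAA and TIR1, whereas the degron was present in the SDS22-degron line alone. The degron line was expanded from an individual colony, so that the cultures of a group share 1 clone. The labels number the samples of a group as biological replicates and give no culture dates. The p-values measure the spread between samples of a group, estimated over all 12 libraries.

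SDS22, encoded by PPP1R7, is a leucine-rich-repeat partner of the catalytic subunits of protein phosphatase-1 (PP1), and PPP1R11 (inhibitor-3) and the ATPase VCP are known to act with it in the assembly and disassembly of PP1 complexes. PP1 counteracts mitotic kinases and acts through a large set of regulatory subunits on chromosomes, actin, glycogen and translation. In dividing cells, genes of DNA replication are driven at the G1/S transition by E2F factors and genes of mitosis in G2 by B-MYB, FOXM1 and NF-Y. When cells leave the cycle, the DREAM complex, which contains p130 (RBL2) or p107 (RBL1) with E2F4 and the MuvB core, represses both sets, and the cell cycle genes homology region (CHR) in promoters of mitotic genes is its contact site.

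Promoter sequences are shown for 4 genes that fell after Dox/IAA, since 3 lists of mitotic genes that fell had the highest shares of promoters with a CHR among the lists. The 250 bases before the RefSeq transcription start (GRCh38.p14) were searched on both strands for the CHR (TTTGAA or TTTAAA) and for the NF-Y element CCAAT. A window was matched for 10626 of the 16657 genes tested. The CHR letters stood in 20 of the 30 promoters matched for spindle and cytokinesis genes (66.7%), in 8 of 16 for chromosome condensation and cohesion genes and in 7 of 15 for mitotic kinases and cyclins (46.7%), against 13.8% of all promoters matched. Kinetochore and spindle checkpoint genes, which also fell, had a share of 22.6%. It was higher in 2 lists with more higher than lower calls, at 35.0% for TGF-beta, BMP and ID genes and 30.4% for integrins and matrix. Below, KIF20A and PRC1 belong to the first list, and MKI67 and ESPL1 to the second. PRC1 and ESPL1 were picked after their values were seen. Each sequence reads 5′ to 3′ on the strand of the gene and ends at the base before the start, with CHR and CCAAT matches of either strand in capitals. The last CHR and CCAAT matches of MKI67 overlap. The windows lie at chr5:138178862-138179111 on the plus strand, chr15:90994536-90994785 on the minus strand, chr10:128126424-128126673 on the minus strand and chr12:53268049-53268298 on the plus strand.
KIF20A: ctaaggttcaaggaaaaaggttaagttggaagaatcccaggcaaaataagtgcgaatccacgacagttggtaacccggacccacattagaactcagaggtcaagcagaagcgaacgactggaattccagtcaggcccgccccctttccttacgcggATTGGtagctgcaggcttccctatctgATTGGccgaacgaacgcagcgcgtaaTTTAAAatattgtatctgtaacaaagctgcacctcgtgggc
PRC1: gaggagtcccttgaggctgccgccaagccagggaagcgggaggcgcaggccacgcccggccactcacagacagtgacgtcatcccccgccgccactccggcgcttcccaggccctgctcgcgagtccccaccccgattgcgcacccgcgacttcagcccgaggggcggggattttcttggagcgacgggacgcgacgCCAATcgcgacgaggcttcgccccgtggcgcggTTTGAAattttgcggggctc
MKI67: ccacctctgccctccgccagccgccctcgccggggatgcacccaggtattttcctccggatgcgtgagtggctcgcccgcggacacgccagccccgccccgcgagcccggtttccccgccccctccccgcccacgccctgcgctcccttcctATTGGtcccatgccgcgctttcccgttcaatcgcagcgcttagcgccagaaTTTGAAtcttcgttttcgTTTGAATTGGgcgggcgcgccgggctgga
ESPL1: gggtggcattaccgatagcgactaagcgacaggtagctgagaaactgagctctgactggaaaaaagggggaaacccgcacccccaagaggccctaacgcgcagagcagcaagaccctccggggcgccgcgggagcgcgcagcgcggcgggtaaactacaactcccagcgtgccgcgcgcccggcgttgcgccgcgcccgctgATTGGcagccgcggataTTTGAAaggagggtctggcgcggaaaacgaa
In these windows the CHR lies within 50 bases of the start, at 41 bases before it in KIF20A, 20 in PRC1, 47 and 29 in MKI67 and 31 in ESPL1. A CHR this close was found in 13 of the 30 spindle and cytokinesis promoters (43.3%), in 40 of the 364 matched promoters of genes that fell more than 2-fold and in 2.39% of all. CCAAT was in 76.7% of the spindle and cytokinesis promoters and in 35.1% of all, and was at least as frequent in 3 lists with more higher than lower calls, at 83.3% for endoplasmic reticulum folding, 83.3% for cholesterol synthesis and 100% for the 8 replication-dependent histone promoters. E2F letters (TTTCCCGC or TTTGGCGC) were in 6 of the 25 promoters of origin licensing and firing genes and in 3.14% of all. They were in 7 of 31 for the replication fork and nucleotide supply and in 5 of 17 for E2F and pocket proteins. Homologous recombination and Fanconi anemia genes, which also fell, had them in 1 of 26. Targets of p53, with more higher than lower calls, had them in 4 of 24. These matches describe letters in the windows and say nothing of binding.

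The libraries held between 12133915 and 14657508 counts in genes. The first principal component of the 6 SDS22-degron libraries carried 72.28% of their variance and placed all 3 treated libraries apart from all 3 untreated ones. Counts of mitochondrial genes made up 4.65 to 5.26% of an untreated library and 5.26 to 7.09% of a treated one, and pseudogenes 7.18 to 7.45% and 6.003 to 6.58%. All 10 epithelial marker genes were detected, with a summed level of 3710 to 4460 CPM (counts per gene scaled to a common library size) untreated and 3790 to 4180 CPM treated. Of 10 fibroblast markers 8 had no count in the 6 libraries, among them DCN, LUM and COL1A2, and the list summed to 13.7 to 15.7 CPM untreated and 21.9 to 32.7 CPM treated, nearly all of it COL1A1. The 10 leukocyte markers summed to at most 1.05 CPM and the 8 endothelial markers to at most 1.90 CPM. Below, levels are CPM scaled by the trimmed mean of M-values (TMM), so that a gene is given relative to the bulk of the library, and they compare a gene between samples, not genes with each other.

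PPP1R7, the gene that encodes the degraded protein, was read first. Its mRNA stood at 40.6, 45.7 and 45.8 CPM in the untreated and 48.1, 44.4 and 51.1 CPM in the treated libraries, and the difference did not pass the test (log2 fold change 0.12 ± 0.088 (standard error, SE), adjusted p = 0.27). The degron acts on the tagged protein, so the mRNA checks neither the label of a sample nor the loss of SDS22. Nor did most of its partners pass the test. PPP1CA, a catalytic subunit, had a log2 fold change of 0.075 ± 0.059 SE, adjusted p = 0.31, and PPP1CB one of 0.096 ± 0.10 SE, adjusted p = 0.46. PPP1R11 had -0.023 ± 0.096 SE, adjusted p = 0.86, and VCP -0.066 ± 0.060 SE, adjusted p = 0.38. Among the catalytic subunits only PPP1CC was called, at 345, 357 and 302 CPM in the untreated and 258, 253 and 241 CPM in the treated libraries (log2 fold change -0.42 ± 0.079 SE, adjusted p = 2.4e-04). All 3 treated PPP1CC values lay below all 3 untreated ones.

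Treated SDS22-degron cells had lower levels of the genes that copy, condense and segregate chromosomes, and higher levels of interferon-stimulated, antigen presentation, cell adhesion and lysosomal genes. At an adjusted p under 0.05 (edgeR quasi-likelihood test, Benjamini-Hochberg over 16657 genes), 4339 genes were higher (26.0% of those tested) and 4241 lower (25.5%). The median log2 fold change over all genes was 0.0046. Calls that were also more than 2-fold numbered 621 higher (3.73%) and 654 lower (3.93%). The 3 treated libraries lay wholly above the 3 untreated ones in 30.2% of genes and wholly below in 29.7%. Of 12425 protein-coding genes tested, 3975 were higher and 3139 lower, while of 2974 pseudogenes 203 were higher and 878 lower. Genes that fell more than 2-fold had a median untreated level of 19.2 CPM and a median length of 2904 bases, against 2.59 CPM and 4519 bases for genes that rose more than 2-fold. When the genes were split by length into 5 equal groups, the median log2 fold change went from -0.17 in the shortest group to 0.13 in the longest, and from -0.14 to 0.073 in parental cells. The part of transcript length in the results was not tested.

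Mitotic genes fell in nearly every case tested. All 21 mitotic kinases and cyclins tested and all 34 spindle and cytokinesis genes were called lower, as were 35 of 38 kinetochore and spindle checkpoint genes and 19 of 20 condensation and cohesion genes. The background share of lower calls was 25.5%. Their median log2 fold changes were -1.35, -1.23, -1.16 and -1.16. In bulk RNA, fewer cells in mitosis and less RNA per cell cannot be told apart. AURKB, the kinase of the chromosomal passenger complex, stood at 78.8, 78.96 and 81.3 CPM in the untreated and 26.9, 25.2 and 24.5 CPM in the treated libraries. The treated libraries lay below the untreated ones by more than the spread of either group (log2 fold change -1.64 ± 0.099 SE, adjusted p = 1.1e-09). BIRC5, or survivin, which brings that complex to centromeres, stood at 292, 281 and 286 CPM in the untreated and 107, 96.9 and 88.5 CPM in the treated libraries (log2 fold change -1.55 ± 0.097 SE, adjusted p = 1.3e-09). MKI67, which encodes the chromosome-coating protein Ki-67 and a PP1 anchor, went from 878, 870 and 905 CPM to 335, 311 and 294 CPM (log2 fold change -1.50 ± 0.11 SE, adjusted p = 5.6e-09). Every treated value of these genes lay below every untreated one. They were named for the smallest p in their lists, as were many genes below. A separation of the groups in such genes therefore follows in part from the choice. Log2 fold changes of further genes are marked log2. CENPF of the outer kinetochore changed by -1.53 log2 (adjusted p = 3.7e-09), KNSTRN, a spindle-attachment factor, by -1.46 log2 (adjusted p = 5.5e-10), and BUB1B, the checkpoint protein BubR1, by -1.50 log2 (adjusted p = 4.3e-09). Among motors and spindle factors, TPX2, the activator of Aurora A, changed by -1.41 log2 (adjusted p = 2.3e-09) and the cytokinesis kinesin KIF20A by -1.47 log2 (adjusted p = 3.7e-09). NCAPD2 of condensin I changed by -1.19 log2 (adjusted p = 2.1e-09) and TOP2A, the topoisomerase that untangles sister DNA, by -1.28 log2 (adjusted p = 7.5e-09). Not called were MAD1L1, PMF1, SKA2 and the cohesin subunit STAG2.

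The anaphase-promoting complex, the ubiquitin ligase that ends mitosis, split by part. Of 19 genes 11 were lower and 2 higher, with a median of -0.23. The members that fell more than 2-fold were CDC20, its mitotic activator, UBE2C, its E2 enzyme, and FBXO5, its interphase inhibitor EMI1. CDC20 stood at 183, 191 and 202 CPM in the untreated and 62.1, 59.5 and 54.9 CPM in the treated libraries (log2 fold change -1.71 ± 0.12 SE, adjusted p = 4.9e-09), UBE2C changed by -1.51 log2 (adjusted p = 8.0e-09) and FBXO5 by -1.01 log2 (adjusted p = 7.5e-08). FZR1, the activator CDH1 that works after mitosis, was called higher at 0.23 log2 (adjusted p = 0.018), a call lost without untreated replicate 1, treated replicate 1 or treated replicate 3 and under a GC correction. CDC20P1, a processed pseudogene of CDC20, fell by 1.82 on the log2 scale, and reads of near-identical copies can be assigned to either.

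DNA replication and repair genes fell as well. Of 29 origin licensing and firing genes 28 were lower (median -1.15), of 36 genes of the replication fork and nucleotide supply 35 were lower and 1 higher (median -1.01), and of 29 homologous recombination and Fanconi anemia genes 26 were lower (median -1.02). MCM7, a subunit of the replicative helicase, stood at 513, 503 and 502 CPM in the untreated and 216, 183 and 184 CPM in the treated libraries (log2 fold change -1.38 ± 0.075 SE, adjusted p = 5.5e-10). GINS4, of the helicase's GINS partner, went from 36.96, 39.1 and 33.6 CPM to 11.1, 11.7 and 10.5 CPM (log2 fold change -1.72 ± 0.16 SE, adjusted p = 8.7e-08). Neither gene overlapped between groups. CDT1, the licensing factor that loads the helicase, changed by -1.08 log2 (adjusted p = 2.5e-09), RFC4 of the clamp loader by -1.47 log2 (adjusted p = 3.5e-09) and TK1, thymidine kinase of the salvage pathway, by -1.27 log2 (adjusted p = 4.8e-09). XRCC2, a gene of homologous recombination, stood at 32.9, 32.9 and 30.4 CPM in the untreated and 9.69, 8.67 and 8.89 CPM in the treated libraries (log2 fold change -1.82 ± 0.11 SE, adjusted p = 1.3e-09), and FANCA of the Fanconi core complex changed by -1.28 log2 (adjusted p = 7.9e-09). The member against the direction of its list was POLD4, the small subunit of polymerase delta. It stood at 2.26, 2.54 and 2.51 CPM in the untreated and 4.96, 5.58 and 4.86 CPM in the treated libraries (log2 fold change 1.07 ± 0.16 SE, adjusted p = 2.1e-05).

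Regulators of these programmes moved in both directions. Of 20 E2F and pocket protein genes 13 were lower and 2 higher, with a median of -0.59. E2F8, an atypical E2F repressor that is itself an E2F target, stood at 24.9, 22.1 and 23.7 CPM in the untreated and 8.85, 5.50 and 5.77 CPM in the treated libraries (log2 fold change -1.81 ± 0.16 SE, adjusted p = 6.4e-08). MYBL2, or B-MYB, stood at 106, 113 and 124 CPM in the untreated and 49.3, 32.4 and 41.02 CPM in the treated libraries (log2 fold change -1.48 ± 0.12 SE, adjusted p = 2.1e-08), and FOXM1, the G2 factor, changed by -1.32 log2 (adjusted p = 2.1e-08). All treated values of these genes lay below the untreated ones. RBL2, the p130 pocket protein of quiescent cells, went the other way at 47.1, 45.7 and 42.7 CPM in the untreated and 64.9, 69.5 and 71.2 CPM in the treated libraries (log2 fold change 0.60 ± 0.071 SE, adjusted p = 1.5e-06). RB1 was not called (-0.11 log2, adjusted p = 0.39). Of 18 G1 cyclins and CDK inhibitors 7 were lower and 5 higher, against 25.5% and 26.0% of all genes. The kinase CDK4 changed by -0.85 log2 (adjusted p = 8.7e-09), SKP2, which targets p27 for degradation, by -0.88 log2 (adjusted p = 5.8e-07), and the phosphatase CDKN3 by -1.33 log2 (adjusted p = 2.3e-07). The 5 that rose were CCNG1, CCNG2, CDKN1A, CDKN1C and CDKN2B. CCNG2, an atypical cyclin of arrested cells, stood at 27.4, 27.5 and 24.98 CPM in the untreated and 60.3, 54.9 and 62.4 CPM in the treated libraries (log2 fold change 1.15 ± 0.13 SE, adjusted p = 1.2e-06). CCND1, CDK6 and CDKN1B were not called.

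Targets of p53, the tumour suppressor that HCT116 cells carry as wild type, were higher in 20 of 32 cases and lower in 3, with a median of 0.46 and a background of 26.0% higher calls. CDKN1A, the CDK inhibitor p21, stood at 445, 516 and 551 CPM in the untreated and 753, 829 and 891 CPM in the treated libraries (log2 fold change 0.71 ± 0.083 SE, adjusted p = 1.2e-06). BBC3, the pro-apoptotic BH3 protein PUMA, stood at 47.2, 39.5 and 42.4 CPM in the untreated and 101, 136 and 110 CPM in the treated libraries (log2 fold change 1.43 ± 0.13 SE, adjusted p = 5.9e-08). For both genes each treated library exceeded each untreated one. TP53INP1, a stress-induced nuclear protein, changed by 1.28 log2 (adjusted p = 2.8e-09) and RRM2B, the p53-inducible ribonucleotide reductase subunit, by 0.78 log2 (adjusted p = 4.4e-08), whereas MDM2, the p53 ligase, changed by 0.23 log2 (adjusted p = 0.018). The 3 that fell were AEN, PMAIP1 (NOXA) and PLK2. PLK2 stood at 376, 371 and 401 CPM in the untreated and 205, 196 and 205 CPM in the treated libraries (log2 fold change -0.92 ± 0.084 SE, adjusted p = 6.7e-08). Among 29 apoptosis regulators 14 were higher and 5 lower, with a median of 0.19. BMF, a BH3 protein linked to loss of adhesion, rose from 1.75, 1.79 and 1.44 CPM to 4.88, 9.83 and 9.64 CPM (log2 fold change 2.28 ± 0.26 SE, adjusted p = 1.2e-06), and BCL2, the anti-apoptotic founder of the family, fell from 9.19, 8.80 and 8.20 CPM to 3.89, 3.95 and 5.11 CPM (log2 fold change -1.02 ± 0.16 SE, adjusted p = 3.1e-05).

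**Figure D1:**
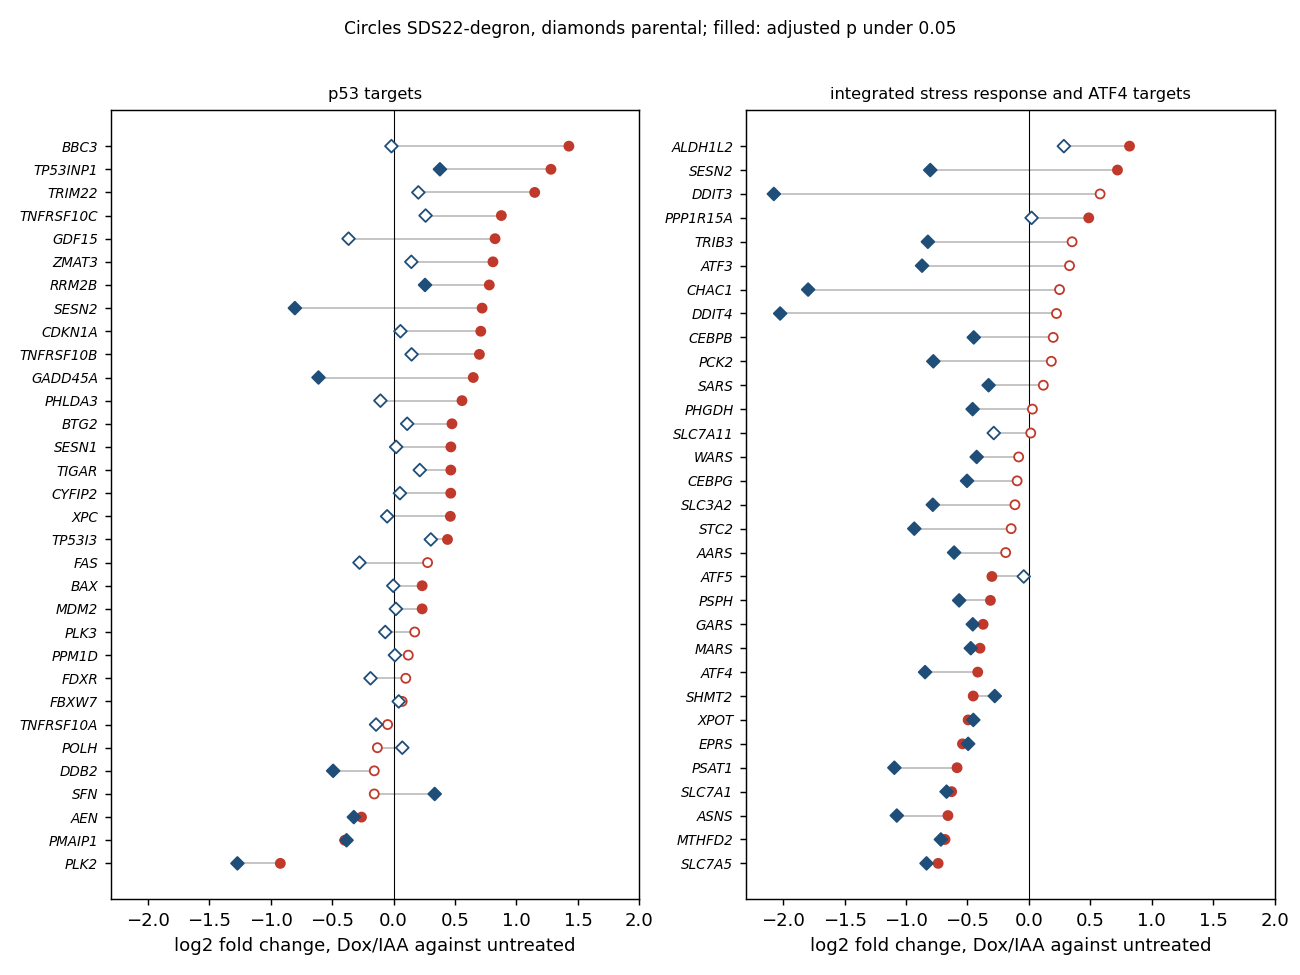
Log2 fold change after Dox/IAA (horizontal axis) of each tested p53 target (left) and each tested gene of the integrated stress response and ATF4 targets (right). Circles are SDS22-degron cells, diamonds parental cells, filled where the adjusted p was under 0.05, and grey lines join the values of a gene. BBC3 lies at 1.43 in SDS22-degron and -0.017 in parental cells.

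Calls were mostly on the lower side in the lists of ribosome biogenesis, of chaperones, of the proteasome and of the nuclear genes of the respiratory chain, whereas of 13 mRNAs of the mitochondrial genome 5 were higher and 1 lower. All 26 ribosome biogenesis and MYC target genes were lower, with a median of -0.91, against 25.5% lower calls over all genes. MYC itself stood at 395, 369 and 393 CPM in the untreated and 167, 136 and 166 CPM in the treated libraries (log2 fold change -1.30 ± 0.13 SE, adjusted p = 1.4e-07), and no treated library reached an untreated one. BOP1, a pre-ribosome processing factor, changed by -1.14 log2 (adjusted p = 5.4e-10), FBL, the rRNA methyltransferase fibrillarin, by -1.19 log2 (adjusted p = 2.1e-09) and CAD, which opens pyrimidine synthesis, by -1.13 log2 (adjusted p = 7.3e-10). Of 24 chaperone and heat shock genes 14 were lower and 1 higher (median -0.48). The list holds mainly cytosolic chaperones, but also the heat shock factors HSF1 and HSF2, which were not called, and HSPD1 and HSPE1 of the mitochondrial chaperonin, which were lower (-1.11 log2, adjusted p = 1.2e-08, and -1.07 log2, adjusted p = 4.7e-06). HSP90AB1, the constitutive HSP90, went from 3180, 3222 and 3331 CPM to 1739, 1656 and 1623 CPM (log2 fold change -0.96 ± 0.081 SE, adjusted p = 3.0e-08), CCT5 of the chaperonin TRiC changed by -0.78 log2 (adjusted p = 1.2e-07), and the small heat shock protein gene HSPB1 was the one called higher (0.32 log2, adjusted p = 0.0051, lost without treated replicate 3). Of 32 proteasome subunits 29 were lower, with log2 fold changes over the list from -0.59 to -0.074 and a median of -0.39. PSMB7 of the catalytic core changed by -0.51 log2 (adjusted p = 1.3e-06) and PSMD14, the deubiquitinase of the lid, by -0.54 log2 (adjusted p = 1.2e-05). Of 39 nuclear genes of the respiratory chain 25 were lower (median -0.27), among them SDHB of complex II (-0.53 log2, adjusted p = 2.0e-06) and NDUFV1 of complex I (-0.52 log2, adjusted p = 4.2e-06). CCT5, HSPB1, HSPD1 and HSPE1 have pseudogenes with counts of their own, and their values are uncertain to that extent.

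Interferon-stimulated and antigen presentation genes rose together. Of 34 interferon-stimulated genes 31 were higher and 1 lower, with a median of 1.12, and of 20 antigen presentation genes 18 were higher and 1 lower, with a median of 0.90. The background of higher calls was 26.0%. IFI6, a membrane protein induced by type I interferon, stood at 10.5, 9.70 and 9.87 CPM in the untreated and 54.9, 45.4 and 46.04 CPM in the treated libraries (log2 fold change 2.28 ± 0.14 SE, adjusted p = 1.3e-09). BST2, or tetherin, which holds budding virus at the cell surface, had the highest fold change among members with more than 3 counts in the untreated group, from 0.729, 0.344 and 0.835 CPM to 3.74, 3.10 and 3.13 CPM (log2 fold change 2.39 ± 0.28 SE, adjusted p = 1.1e-06). IFITM3, which restricts viral entry, stood at 163, 154 and 171 CPM in the untreated and 417, 361 and 369 CPM in the treated libraries (log2 fold change 1.23 ± 0.090 SE, adjusted p = 6.5e-09). In these genes the groups were separated by more than the spread of either. B2M, the invariant class I chain, changed by 0.90 log2 (adjusted p = 3.5e-09), PARP9, a partner of the ubiquitin ligase DTX3L, by 1.35 log2 (adjusted p = 9.9e-10), and HLA-C by 1.02 log2 (adjusted p = 1.0e-08), where class I genes are near-copies of each other and their counts may be shared. MR1, which presents vitamin B metabolites to T cells, rose from 7.87, 10.5 and 9.26 CPM to 32.3, 35.5 and 36.6 CPM (log2 fold change 1.91 ± 0.11 SE, adjusted p = 7.3e-10). OAS3, a sensor of double-stranded RNA, was the interferon-stimulated gene called lower, at 109, 112 and 120 CPM in the untreated and 89.3, 70.9 and 79.8 CPM in the treated libraries (log2 fold change -0.51 ± 0.085 SE, adjusted p = 7.6e-05). TAP2, a peptide transporter subunit, was the antigen presentation gene called lower (-0.21 log2, adjusted p = 0.041), a call lost in 10 of 16 alternatives, among them each library left out except treated replicate 2.

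The interferon-stimulated response element (ISRE) is the contact site of interferon-activated STAT and IRF factors. Its core, searched as GAAA and GAAA with 2 bases of any kind between them, on both strands, was in 57.7% of the 26 promoters matched for interferon-stimulated genes, in 31.2% of 16 for antigen presentation genes, in 4.45% of 427 for genes that rose more than 2-fold and in 2.16% of all. This pattern was chosen after the interferon-stimulated genes had been seen to rise. IFI6 and IFITM3, which rose, and OAS3, which fell, are shown with their cores in capitals, from chr1:27672193-27672442 on the minus strand, chr11:320861-321110 on the minus strand and chr12:112938224-112938473 on the plus strand (GRCh38.p14).
IFI6: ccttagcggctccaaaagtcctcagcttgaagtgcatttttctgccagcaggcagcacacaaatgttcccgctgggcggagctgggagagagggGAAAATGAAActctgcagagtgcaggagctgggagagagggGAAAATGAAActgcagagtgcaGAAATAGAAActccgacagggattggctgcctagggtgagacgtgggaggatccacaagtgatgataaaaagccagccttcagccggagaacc
IFITM3: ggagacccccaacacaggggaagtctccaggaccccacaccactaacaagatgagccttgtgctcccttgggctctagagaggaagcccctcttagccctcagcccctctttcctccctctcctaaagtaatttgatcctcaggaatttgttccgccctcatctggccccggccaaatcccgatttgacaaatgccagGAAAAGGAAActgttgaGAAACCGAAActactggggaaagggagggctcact
OAS3: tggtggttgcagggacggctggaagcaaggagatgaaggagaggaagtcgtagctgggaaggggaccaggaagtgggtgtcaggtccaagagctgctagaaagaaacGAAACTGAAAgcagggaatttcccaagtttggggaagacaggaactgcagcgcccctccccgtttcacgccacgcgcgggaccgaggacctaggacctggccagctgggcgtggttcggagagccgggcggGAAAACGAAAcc
IFI6 holds 3 cores and the other two genes 2 each, so that these letters were present upstream of the gene that fell as well as of those that rose.

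The highest fold changes among genes with at least 10 CPM on average belonged to genes of varied function. CEMIP, which degrades hyaluronan in the matrix, stood at 17.8, 19.3 and 16.1 CPM in the untreated and 203, 254 and 252 CPM in the treated libraries (log2 fold change 3.74 ± 0.11 SE, adjusted p = 6.0e-14). SELENOP, the plasma carrier of selenium, stood at 4.74, 3.71 and 4.93 CPM in the untreated and 34.6, 34.8 and 30.97 CPM in the treated libraries (log2 fold change 2.91 ± 0.23 SE, adjusted p = 1.2e-08). CYP1B1, a cytochrome P450 induced through the aryl hydrocarbon receptor (AhR), stood at 4.59, 4.47 and 3.49 CPM in the untreated and 29.5, 25.6 and 27.6 CPM in the treated libraries (log2 fold change 2.71 ± 0.14 SE, adjusted p = 5.4e-10). Genes of this set were kept only where the groups did not overlap, so that their separation is no further result. The same condition held for IFI6, E2F8 and GINS4 above, which belong to the set too. Other genes of this set were the transcription factor ATOH8 (2.36 log2, adjusted p = 1.2e-08), RCAN2, an inhibitor of calcineurin (2.11 log2, adjusted p = 3.7e-08), the zinc finger gene ZNF827 (2.05 log2, adjusted p = 1.5e-10), ABAT, the GABA transaminase (1.93 log2, adjusted p = 8.1e-10) and the sugar transporter SLC2A12 (1.91 log2, adjusted p = 8.6e-09). Of 8 AhR targets tested 5 were higher and none lower, with a median of 0.69: beside CYP1B1 these included AHRR, the repressor of the receptor (1.58 log2, adjusted p = 1.2e-09), and TIPARP, which ends its signal (1.07 log2, adjusted p = 1.7e-09). AHR itself, ALDH3A1 and NQO1 were not called. The gene with the lowest fold change of this set was TNFSF18, a ligand of the TNF family, at 49.2, 49.2 and 65.6 CPM in the untreated and 8.77, 10.5 and 13.01 CPM in the treated libraries (log2 fold change -2.35 ± 0.16 SE, adjusted p = 3.4e-09). SUSD2, a membrane protein with a sushi domain, followed (-2.22 log2, adjusted p = 1.3e-09), then DDN, dendrin (-2.20 log2, adjusted p = 2.8e-08), and EMP1, an epithelial membrane protein (-1.83 log2, adjusted p = 1.9e-09). SPARC, a collagen-binding matrix protein, fell from 26.6, 23.2 and 19.7 CPM to 7.63, 5.88 and 7.25 CPM (log2 fold change -1.74 ± 0.19 SE, adjusted p = 4.9e-07). CEMIP, CYP1B1, ABAT, SLC2A12 and DDN overlap another gene on the opposite strand. The library kit marks strand, but whether the counting used it is not given in the sources used here.

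**Figure D2:**
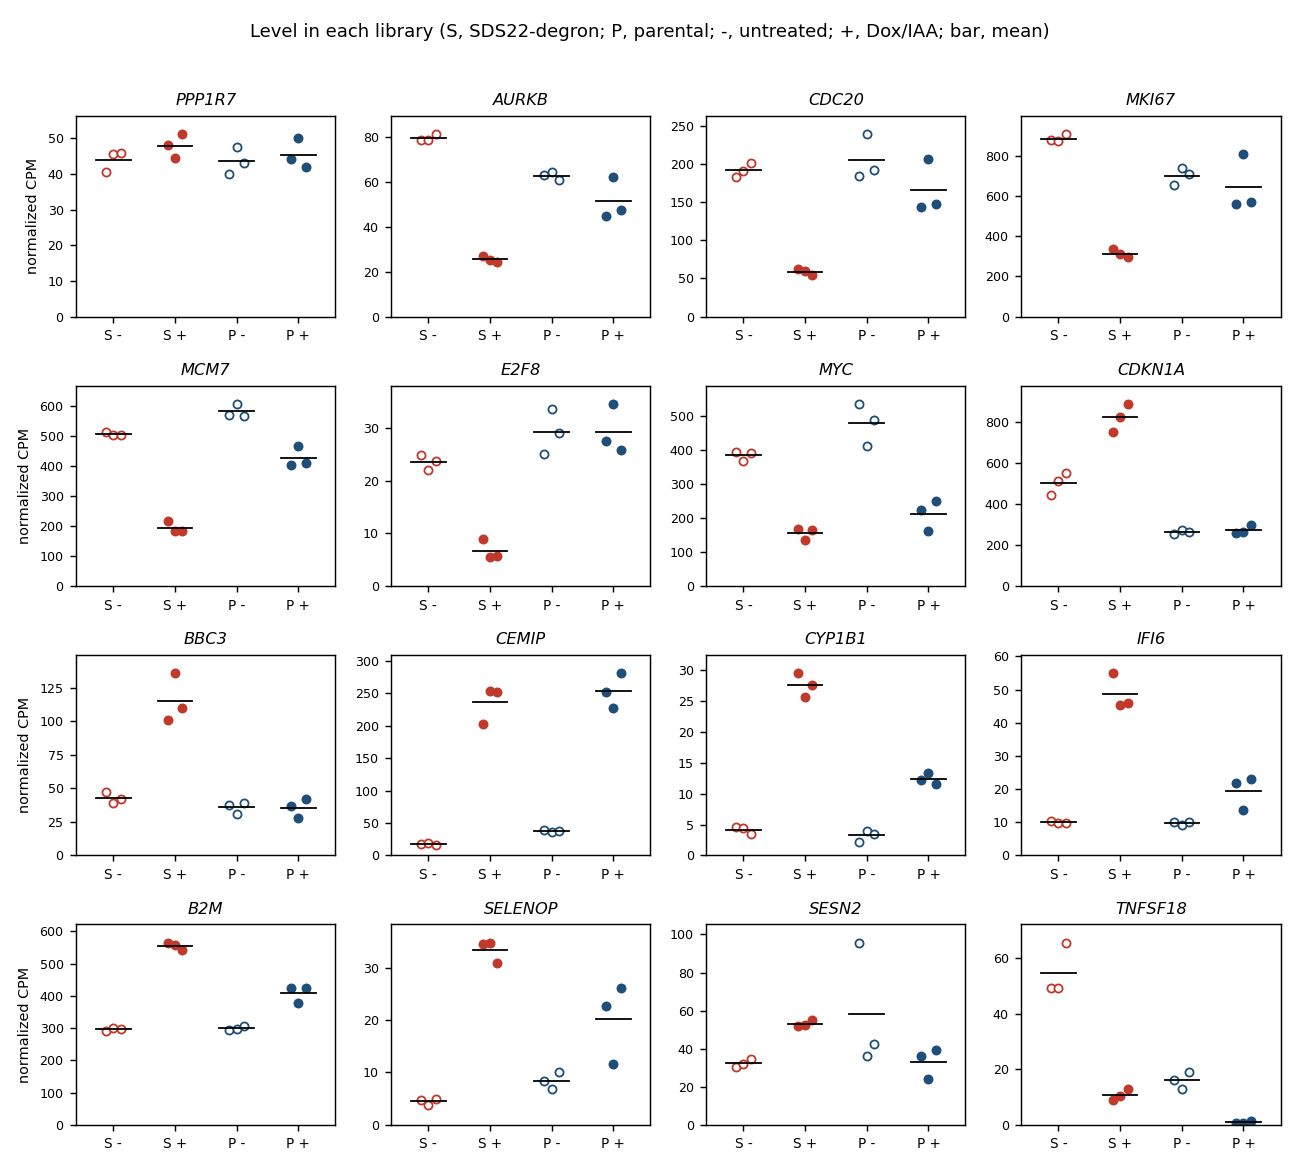
Level in normalized CPM (vertical axes, starting at 0) of 16 genes in each of the 12 libraries. S marks SDS22-degron and P parental cells, open points are untreated and filled points treated libraries, and the bar is the mean of 3. PPP1R7 overlaps between groups, AURKB, MCM7 and E2F8 lie lower in treated SDS22-degron libraries, and IFI6 and CEMIP higher.

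CRISP3, IL23R, IL12RB2 and TMPRSS11E had no count in any untreated SDS22-degron library and were called higher after treatment. They fall outside the rule for named genes and were picked after their values were seen. They passed the expression filter through treated libraries alone, being absent or nearly absent from the untreated ones of both lines. Their calls and fold floors therefore follow in part from how they were picked. CRISP3, a secreted cysteine-rich protein, had 70, 54 and 75 counts in the treated libraries, at least 74.1-fold higher than a floor of 3 counts over the untreated group. IL23R, a receptor chain for interleukin-23, had 51, 70 and 74 counts, at least 72.6-fold higher. Its neighbour IL12RB2 (GRCh38 chromosome 1, bases 67307364 to 67396900, with IL23R at bases 67138907 to 67259979) had 7, 12 and 17 counts, at least 13.4-fold higher. TMPRSS11E, a serine protease, had 15, 5 and 15 counts, at least 13-fold higher. The treated parental cells had them too, at a mean of 4.23 CPM for CRISP3, 5.04 CPM for IL23R, 1.60 CPM for IL12RB2 and 1.53 CPM for TMPRSS11E, and untreated parental cells had at most a mean of 0.026 CPM.

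Genes of adhesion, matrix and cell surface signalling rose in majority, against 26.0% higher and 25.5% lower calls over all genes. Of 32 cell-cell junction genes 25 were higher and 2 lower (median 0.40), of 29 integrin and matrix genes 17 were higher and 6 lower (median 0.52), and of 22 TGF-beta, BMP and ID genes 17 were higher and 2 lower (median 0.53). JUP, plakoglobin of desmosomes and adherens junctions, stood at 227, 215 and 247 CPM in the untreated and 437, 441 and 502 CPM in the treated libraries (log2 fold change 1.00 ± 0.095 SE, adjusted p = 1.0e-07). CDH1, or E-cadherin, stood at 92.6, 99.6 and 91.3 CPM in the untreated and 181, 193 and 194 CPM in the treated libraries (log2 fold change 1.00 ± 0.13 SE, adjusted p = 4.9e-06). Groups did not overlap for either gene. The tight junction gene CLDN3 changed by 1.33 log2 (adjusted p = 1.1e-07), HSPG2, the basement membrane proteoglycan perlecan, by 1.56 log2 (adjusted p = 7.9e-09) and the collagen VI gene COL6A2 by 0.97 log2 (adjusted p = 7.7e-09). ID3 and ID2, dominant-negative helix-loop-helix factors, changed by 0.79 log2 (adjusted p = 1.3e-07) and 0.77 log2 (adjusted p = 1.7e-08), and BMPR2, the type II BMP receptor, by 0.78 log2 (adjusted p = 5.9e-08). Of 10 epithelial markers 5 were higher and 2 lower, with KRT8 among the latter (-0.33 log2, adjusted p = 0.0085, lost without untreated replicate 3), and of 11 intestinal differentiation genes tested 1 was higher and 5 lower, among them KRT20 (-0.95 log2, adjusted p = 4.1e-04) and carbonic anhydrase CA2 (-0.62 log2, adjusted p = 1.1e-04). Keratins 8 and 18 have many pseudogenes and their values are uncertain. Of 39 autophagy and lysosome genes 29 were higher and 2 lower (median 0.45). CTSB, the lysosomal protease cathepsin B, stood at 199, 197 and 192 CPM in the untreated and 485, 503 and 463 CPM in the treated libraries (log2 fold change 1.30 ± 0.073 SE, adjusted p = 6.6e-10). The autophagosome protein gene MAP1LC3B changed by 1.13 log2 (adjusted p = 3.2e-09).

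Metabolic and stress lists were mixed. Of all genes tested 26.0% were called higher and 25.5% lower, and the counts of several lists here lie near these shares. Among them are the higher calls of cholesterol and of fatty acid synthesis genes. Of 30 glycolysis and hypoxia genes 12 were higher and 10 lower, and the 10 that fell were the enzymes ALDOA, ENO1, GAPDH, GPI, HK2, LDHA, PFKM, PGAM1, PGK1 and TPI1. Among the 12 that rose were also 5 glycolytic enzymes, ALDOC, ENO2, HK1, PFKL and PKM. LDHA, lactate dehydrogenase, stood at 667, 699 and 696 CPM in the untreated and 356, 323 and 338 CPM in the treated libraries (log2 fold change -1.02 ± 0.088 SE, adjusted p = 3.4e-08), while the stress-induced NDRG1 had a log2 fold change of 1.12 ± 0.078 SE, adjusted p = 3.7e-09. Of 24 cholesterol synthesis genes 7 were higher and none lower (median 0.33). Treated replicates differed in this list, with summed levels of 3995, 3011 and 4928 CPM against 2989 to 3351 CPM untreated. Without treated replicate 2 the count of higher calls was 18 and the median 0.50, and without treated replicate 3 they were 5 and 0.082, with 1 gene lower. The replicate block gave 12 higher. SREBF2, the master regulator of the pathway, changed by 0.54 log2 (adjusted p = 0.0011) and TM7SF2, a sterol reductase, by 1.11 log2 (adjusted p = 3.8e-07). Of 17 fatty acid and lipid synthesis genes 4 were higher and 2 lower (2 and 3 without treated replicate 3), the latter being the desaturases FADS1 (-0.48 log2, adjusted p = 2.9e-04) and FADS2 (-0.48 log2, adjusted p = 4.9e-04). Of 25 endoplasmic reticulum protein folding genes 5 were higher and 1 lower, with 2 or 3 higher whichever library was left out, and HSPA5 (BiP) was not called (-0.14 log2, adjusted p = 0.64). Of 22 NRF2 targets 5 were higher and 6 lower, with 2 higher without untreated replicate 2 or treated replicate 3, and with GCLM, of glutathione synthesis, at -0.81 log2 (adjusted p = 4.5e-05), and of 7 metallothionein and zinc transporter genes 3 were lower, namely MT1E (-1.03 log2, adjusted p = 1.2e-08), MT2A (-0.78 log2, adjusted p = 1.2e-07) and MT1X (-0.71 log2, adjusted p = 5.9e-04). Of 13 mRNAs of the mitochondrial genome 5 were higher and 1 lower; 9 were higher without treated replicate 1 and 3 without treated replicate 3, the treated library with the largest mitochondrial share. MT-CYB of complex III stood at 3431, 2936 and 3202 CPM in the untreated and 4190, 5317 and 6078 CPM in the treated libraries (log2 fold change 0.70 ± 0.12 SE, adjusted p = 5.6e-05). MT-ND6, the mRNA encoded on the light strand, fell from 153, 155 and 147 CPM to 60.3, 69.1 and 88.9 CPM (log2 fold change -1.06 ± 0.21 SE, adjusted p = 4.2e-04). Of 8 replication-dependent histone genes tested 5 were higher and 1 lower (median 0.77), in libraries made from poly-A RNA, which histone mRNAs of S phase lack. HIST2H2BE changed by 1.41 log2 (adjusted p = 2.2e-06), and HIST1H3E, an H3 gene outside the list, by 1.87 log2 (adjusted p = 6.7e-08). The one that fell was H2AFX, the gene of the histone variant phosphorylated at DNA breaks (-0.82 log2, adjusted p = 4.0e-07). Of 9 replication-independent histone genes 1 was higher, the linker histone H1F0 (0.48 log2, adjusted p = 4.2e-05), and 3 were lower, among them H2AFZ (-1.06 log2, adjusted p = 1.0e-06).

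Lists of signalling and of PP1 subunits showed calls in both directions. Beside them, 26.0% of all genes tested were called higher and 25.5% lower, and several of these lists lie near those shares. Of 37 immediate early and ERK feedback genes 19 were higher and 7 lower (median 0.28), and 9 higher without treated replicate 3. EREG, an EGF receptor ligand, changed by -0.92 log2 (adjusted p = 8.8e-07) and FOSL1, an AP-1 subunit, by -0.63 log2 (adjusted p = 6.0e-06). Of 19 YAP and TEAD targets 8 were higher and 5 lower, with the tissue factor gene F3 at -0.85 log2 (adjusted p = 4.1e-08) and the receptor kinase AXL at -0.84 log2 (adjusted p = 2.2e-07). Of 17 Wnt and TCF targets 8 were higher and 1 lower, the latter MYC, and NOTUM, a Wnt deacylase, rose from 23.9, 22.5 and 24.3 CPM to 64.7, 61.1 and 64.8 CPM (log2 fold change 1.43 ± 0.12 SE, adjusted p = 3.6e-08). Of 20 NF-kB targets and cytokines 4 were higher and 4 lower, with 2 higher without untreated replicate 1 or treated replicate 2. Of 34 cortical actin, ERM and focal adhesion genes 12 were higher, among them RHOC (0.70 log2, adjusted p = 1.5e-06) and the myosin light chain gene MYL12A (0.63 log2, adjusted p = 2.2e-06), and 6 were lower, among them ezrin, EZR (-0.44 log2, adjusted p = 6.6e-04), and merlin, NF2 (-0.36 log2, adjusted p = 4.2e-04). Of 13 genes of PP1 catalytic subunits and assembly factors 2 were higher, PPP1R2 (0.49 log2, adjusted p = 0.0039) and UBXN2B (0.37 log2, adjusted p = 2.7e-04), and 4 lower, including PPP1R10, the nuclear anchor PNUTS (-0.43 log2, adjusted p = 2.5e-04). Of 34 PP1 regulatory subunits 12 were higher and 14 lower. The PP1 anchors that fell most were MKI67, given above, and KNL1 of the kinetochore (-1.39 log2, adjusted p = 3.1e-07). PPP1R12C, a myosin phosphatase subunit, had the highest fold change of that list, at 0.656, 0.894 and 1.29 CPM in the untreated and 13.3, 16.5 and 13.1 CPM in the treated libraries (log2 fold change 3.91 ± 0.20 SE, adjusted p = 3.1e-10). The AAVS1 locus, where the Dox-driven TIR1 transgene sits in both lines, lies in PPP1R12C, and the parental cells gave 2.87 ± 0.21 (SE). Whether reads from the transgene reached this gene's counts was not tested.

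Parental cells, which have the transgene but no degron, met the same Dox and IAA, and they serve to show which changes also occurred without loss of SDS22. In them 2656 genes were higher (15.9%) and 2608 lower (15.7%). In all 3894 genes were called in the same direction in both lines, 45.4% of the calls in SDS22-degron and 74.0% of those in parental cells, and 82 in opposite directions. The interaction, the SDS22-degron log2 fold change minus the parental one, was called above 0 for 1005 genes (6.03%) and below 0 for 1391 (8.35%). Of the genes that fell more than 2-fold in SDS22-degron cells, 65.9% had an interaction called below 0 and 38.7% were also called lower in parental cells. Of those that rose more than 2-fold, 25.9% had an interaction called above 0 and 61.5% were also higher in parental cells.

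**Figure D3:**
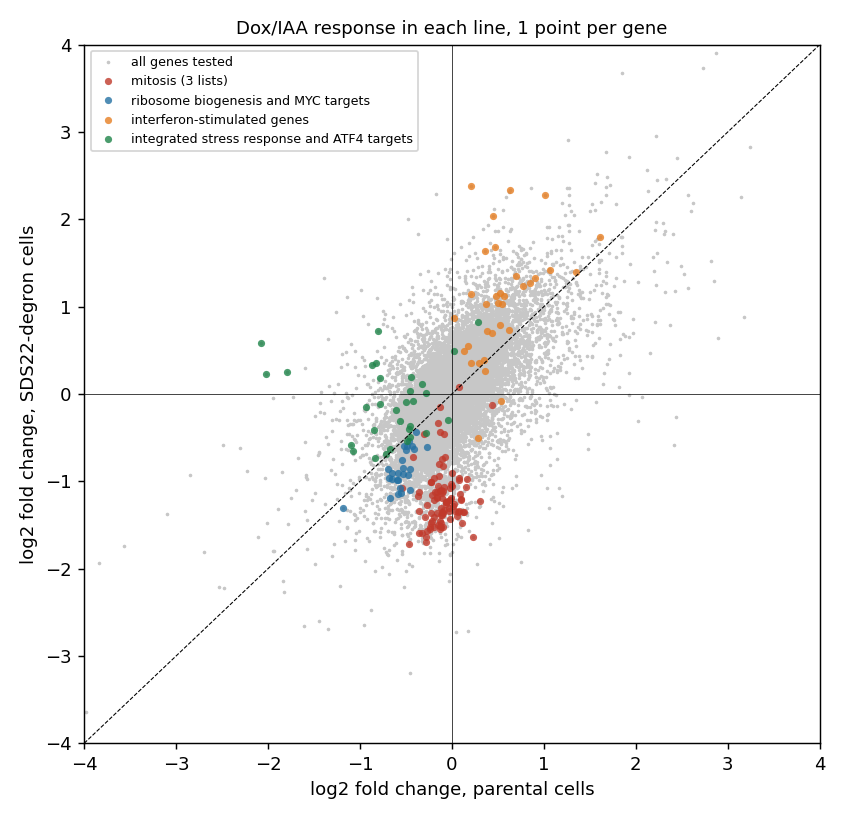
Log2 fold change after Dox/IAA in parental (horizontal axis) and SDS22-degron cells (vertical axis), 1 point per gene tested, with members of 3 mitotic lists and of the ribosome biogenesis, interferon and stress response lists in colour, the dashed line at equal change and 7 genes beyond the axes at 4. Mitotic kinases and cyclins have a median of -0.13 on the parental axis and -1.35 on the other, and interferon-stimulated genes 0.49 and 1.12.

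The fall of mitotic and replication genes was larger in SDS22-degron cells for most members. The interaction was called below 0 for 20 of 21 mitotic kinases and cyclins, 34 of 34 spindle and cytokinesis genes, 33 of 38 kinetochore and spindle checkpoint genes, 17 of 20 condensation and cohesion genes, 25 of 29 origin licensing and firing genes, 31 of 36 genes of the fork and nucleotide supply and 20 of 29 of homologous recombination and Fanconi anemia, against 8.35% of all genes. The parental medians of these lists lay between -0.21 and -0.091. AURKB stood at 63.2, 64.5 and 61.1 CPM in the untreated and 44.99, 62.5 and 47.4 CPM in the treated parental libraries, an interaction of -1.35 ± 0.14 SE, adjusted p = 1.5e-05. E2F8 stood at 25.1, 33.6 and 29.1 CPM in the untreated and 27.6, 34.6 and 25.8 CPM in the treated parental libraries, an interaction of -1.81 ± 0.21 SE, adjusted p = 3.9e-05. The parental ranges overlapped for both genes, unlike those of the degron line. For p53 targets the interaction was called above 0 for 13 of 32 genes and below 0 for 1, against 6.03% and 8.35% of all genes. BBC3 had an interaction of 1.44 ± 0.19 SE, adjusted p = 7.6e-05, and CDKN1A one of 0.65 ± 0.12 SE, adjusted p = 0.0011. Proteasome genes, with a parental median of -0.020, had interactions called below 0 in 15 of 32, and in 13 to 24 over the alternatives.

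Other lists had calls in both lines. Over all genes the interaction was called above 0 in 6.03% and below 0 in 8.35%. All 26 ribosome biogenesis and MYC target genes were also lower in parental cells (median -0.54), and the interaction was called below 0 for 12. MYC had a log2 fold change of -1.18 in parental cells, and its interaction of -0.12 log2 (adjusted p = 0.7) was not called. Interferon-stimulated genes were higher in parental cells in 23 of 34 cases (median 0.49), and the interaction was above 0 for 11 and below 0 for 1. Antigen presentation genes were higher in 17 of 20 (median 0.59), with an interaction above 0 for 6. IFI6 stood at 9.96, 9.07 and 10.1 CPM in the untreated and 21.8, 13.8 and 22.9 CPM in the treated parental libraries, an interaction of 1.27 ± 0.21 SE, adjusted p = 6.0e-04. The AhR targets were higher in parental cells in 5 of 8, and CEMIP, CYP1B1 and SELENOP rose there by 2.73, 1.93 and 1.26 on the log2 scale. The interaction was called above 0 for each of these 3 genes, at 1.01 log2 (adjusted p = 1.4e-04), 0.79 log2 (adjusted p = 0.03) and 1.65 log2 (adjusted p = 0.0021). Cell-cell junction genes had 12 of 32 interactions above 0, integrins and matrix 10 of 29, and autophagy and lysosome genes 14 of 39 with 3 below. For mRNAs of the mitochondrial genome, higher in 10 of 13 in parental cells, 1 interaction was called, that of MT-ND6 at -1.31 log2 (adjusted p = 0.006), and up to 5 in the alternatives.

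The integrated stress response and ATF4 targets also differed between the lines. In SDS22-degron cells 13 of 31 were lower and 3 higher (median -0.11), against 25.5% and 26.0% of all genes. In parental cells 27 were lower and none higher (median -0.61), against 15.7% and 15.9%. The interaction was called above 0 for 11 and below 0 for none, against 6.03% and 8.35%. Among amino acid genes, the transporter SLC7A5 stood at 769, 772 and 809 CPM in the untreated and 539, 449 and 420 CPM in the treated libraries (log2 fold change -0.74 ± 0.086 SE, adjusted p = 1.2e-06), and ASNS, asparagine synthetase, changed by -0.66 log2 (adjusted p = 2.4e-05). The 3 called higher were ALDH1L2, a mitochondrial enzyme of folate metabolism (0.82 log2, adjusted p = 0.035), SESN2 and PPP1R15A, the PP1 subunit GADD34 that reverses the response (0.49 log2, adjusted p = 0.016). These higher calls depended on the fit. None of the list was called higher under DESeq2 or without treated replicate 3 and 1 without untreated replicate 1 or 2, whereas 8 were in a fit of the 6 SDS22-degron libraries alone, in which 14 were lower. The list's median was -0.25 without treated replicate 1. ALDH1L2 lost its call in 5 of 16 alternatives, with adjusted p up to 0.12. SESN2, an inhibitor of mTORC1, stood at 30.4, 31.8 and 34.6 CPM in the untreated and 52.02, 52.3 and 55.3 CPM in the treated libraries (log2 fold change 0.72 ± 0.25 SE, adjusted p = 0.021). The call of SESN2 was lost under DESeq2 (adjusted p = 0.072) and without untreated replicate 1, untreated replicate 2 or treated replicate 3. Untreated parental replicate 1 stood apart in this list. The spread was estimated over all 12 libraries, so that this library also entered the SEs of the SDS22-degron contrast. Its part in those SEs was not tested. DDIT3, the stress factor CHOP, was at 207, 13.9 and 20.4 CPM in the 3 untreated parental libraries, and SESN2 at 95.7, 36.2 and 42.3 CPM, with replicate 1 highest. Without that library the interaction was called for 7 genes, and parental calls were 21 lower and 1 higher. The interaction count was also 7 without any one of the 3 untreated SDS22-degron libraries and 6 without treated SDS22-degron replicate 1. It was 17 without untreated parental replicate 2, 13 without untreated parental replicate 3 and 18 with a replicate block. The list's median interaction was 0.43, and 0.30 without untreated parental replicate 1. The interaction of SESN2 was 1.52 ± 0.35 SE, adjusted p = 0.0067 with untreated parental replicate 1 and 0.95 without it. The part of that library's state in the difference between the lines was not tested.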

How the data were processed

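RNA-seq libraries were made by the authors from poly-A RNA with a stranded kit and read as single ends. The deposited table holds raw read counts per gene for 12 libraries, which the authors counted on GRCh38. The submitters' processing notes list cutadapt 1.15, STAR 2.5.2b, Bowtie2 2.3.3.1, SAMtools 1.5 and featureCounts 1.5.3 without roles. The strand setting of the counting is not given in the sources used here. The deposited table also gives the percent GC of each gene, which served the GC correction alone. All 12 count columns matched a sample, and libraries held 12133915 to 14657508 counts.

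Genes were filtered with filterByExpr (minimum count 10), leaving 16657 of 58233, and tested with edgeR 4.0.16 in R 4.3.3. The model had TMM factors, 4 group means over 12 libraries, no replicate block, a quasi-likelihood F test and Benjamini-Hochberg adjustment over all genes tested. The common biological coefficient of variation was 7.476%. Calls had an adjusted p under 0.05. The contrasts were Dox/IAA against untreated in each line and the interaction, the difference between those effects. Levels are TMM-scaled CPM. Standard errors come from the fit and hold the spread between libraries, whereas the floor of 3 counts covers counting error only. On simulated counts for the SDS22-degron contrast (16441 genes), 97% of 200 genes planted at a log2 fold change of 1.5 were called and over 2-fold. Of the unchanged genes 13 were called, 2 of them over 2-fold. The simulation gave every gene the same spread, unlike the data. No pair of replicates had identical values, and the chi-square per degree of freedom between replicates was 2.16 to 9.73. Deviations from the group means of same-numbered untreated and treated libraries correlated by 0.12, 0.25 and 0.13 in parental and by 0.026, -0.0093 and 0.095 in SDS22-degron cells. With all 3 over 0.1 the numbers were taken to pair the parental samples, from the data alone, and not those of the degron line.

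The gene lists were chosen with earlier results of these data known. Named genes were the 12 highest and 12 lowest among genes called, with groups that did not overlap and at least 10 CPM on average. In each list they were the 3 called members with the smallest p and the called one with the largest change against its majority. These list genes had no condition on overlap or level. The 6 highest and 6 lowest called interactions were taken among genes called in SDS22-degron cells with at least 10 CPM on average. Added without a call were the genes of the SDS22 and PP1 design and the 5 most abundant genes. Not all are printed. CDKN1A, MDM2, RB1, ASNS, DDIT3, PPP1R15A, HSPA5, BST2, EZR, NF2, HSPE1, HSF1, HSF2, the glycolytic enzymes called higher, PRC1, ESPL1 and the genes at 0 were named after their values were seen. Promoter windows were taken from RefSeq (GRCh38.p14), the first listed window per gene. The results were recomputed with DESeq2 1.42.0, edgeR's likelihood ratio test and glmTreat, other scalings and filters, the replicate block, a GC correction, the 6 libraries of a line alone and each library left out.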

Additional observations from a re-analysis of the deposited data

Results flagged for a closer look

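The response to Dox/IAA differed between the lines for many genes by the interaction test (edgeR quasi-likelihood F test, 3 libraries in each of 4 groups). The interaction was above 0 for 1005 genes (6.03% of those tested) and below 0 for 1391 (8.35%). It was called for 109 of the 184 named genes. Their choice raised that share, since they include the 6 highest and 6 lowest called interactions and genes picked for large or clear changes. All values in this section are interactions, the SDS22-degron log2 fold change minus the parental one.

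Among genes of the cell cycle, E2F8, the E2F repressor, had an interaction of -1.81, the kinetochore gene CENPI one of -1.87 and the helicase gene GINS4 one of -1.66. ARHGEF39 had -1.71 and overlaps CCDC107 on the opposite strand. NRGN, neurogranin, had -1.76 and B4GALNT1, a ganglioside synthase, -1.63, and both were called lower in SDS22-degron and higher in parental cells. OAS3, of the interferon-stimulated genes, had -0.79 and the tropomyosin gene TPM2 -0.69, likewise lower in one line and higher in the other.

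SELENOP had an interaction of 1.65, having risen in both lines. BBC3, the p53 target PUMA, had 1.44. MEF2C, a MADS-box transcription factor, had 1.66 and ELF3, an epithelial ETS factor, 1.54. ELF3 was called higher in SDS22-degron and lower in parental cells. TNFSF18 had 1.86 although it fell in SDS22-degron cells, since it fell further in the parental line. SESN2 had 1.52, and 0.95 without untreated parental replicate 1. Each of these 14 single-gene values kept its direction and its call in all 21 alternatives.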

How the results depend on the processing

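In SDS22-degron cells the counts of called genes stayed within 1.5 times in every alternative, except that glmTreat, which tests against a 2-fold change itself, called 99 genes higher and 108 lower over 2-fold in place of 621 and 654. A GC correction with replicate block raised the interactions above 0 from 1005 to 1528. With each library left out in turn, genes higher numbered 3623 to 4044 and lower 3717 to 4071, over 2-fold 572 to 680 and 666 to 741, in the interaction 672 to 1176 and 1007 to 1781, and in parental cells 1972 to 2660 and 1962 to 2557. DESeq2 called 4126 genes higher and 3834 lower. Scaling by library size only moved the median of all genes to 0.045 and called 56.2% of the changed genes higher, against 50.57%. Samples share a replicate number. By the correlations of same-numbered libraries the numbers were taken to pair the parental samples but not those of SDS22-degron cells, and the interaction uses both. The replicate block called 4606 genes higher and 4476 lower, 622 and 662 over 2-fold, 1398 and 1730 in the interaction, and 2999 and 2986 in parental cells against 2656 and 2608.

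Values near 0 changed sign. PPP1R11 was 0.017 with library size only and ranged from -0.099 to 0.069 with each library left out, and PPP1CB from -0.029 to 0.18. With library size only the medians of the G1 list and of the endoplasmic reticulum folding list were 0.011 and 0.0032. The median of the PP1 regulatory list ranged from -0.079 to 0.0045 with each library left out. None of these was called, and the cause was not tested. Over the named genes, list medians and interactions, 3782 alternative values stayed the same, 63 moved, 46 lost their call and 10 gained one. Calls were lost in some alternatives for ALDH1L2, CANX, CDX2, CLDN2, FZR1, HSPB1, KRT8, MT-CO1, MT-RNR2, SESN2, TAP2 and VWF. Depth limits genes of a few CPM, and with 3 libraries a group log2 fold changes had a median SE of 0.11.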
